A study of Bos taurus with 12 samples.

Results

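The endometrium on the CL side, the uterine horn next to the ovary that carries the corpus luteum, was compared between summer and autumn in 6 of the 12 biopsies of the study. The 6 samples were chosen by their titles, which name the horn and the season, and they form 3 summer and 3 autumn arrays. Every biopsy came from a Japanese-Black cow on day 15 of its estrous cycle. Summer samples were collected at the start of September and autumn samples in the middle of November, over consecutive years. No treatment, genotype or age is named for any group, and both seasons share breed, tissue, cycle day and sampling method. The other 6 arrays come from the opposite, non-CL horn in the same seasons, 3 arrays each, and serve here for the shared estimate of spread and for 1 comparison at the end. RNA of each sample, 400 ng, was amplified, labelled with Cy3 and hybridised alone to a bovine array with probes of 60 bases. The labels do not say whether the replicates of a group were separate animals, so p-values speak only of how far these arrays differ among themselves.

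The endometrium lines the uterus and consists of a luminal epithelium, glands that open into it, and a stroma of fibroblasts, vessels and leukocytes. On day 15 of the bovine cycle the corpus luteum secretes progesterone, under which the glands release proteins, lipids and ions that would nourish an embryo, and under which growth factors of the stroma act on the epithelium. The same epithelium is a mucosal barrier that makes defensins, mucins and the receptor that exports immunoglobulins, and that attracts neutrophils through chemokines. Summer heat and season are studied in cattle because conception is lower in hot months.

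Markers of the labelled tissue were present on all 6 arrays. Values are log2 signals relative to the 75th percentile of their own array, listed for replicates 1, 2 and 3 of a season in that order. The epithelial adhesion gene EPCAM had 4.34, 4.15 and 3.84 in summer and 3.98, 2.91 and 3.81 in autumn. Decorin, DCN, a proteoglycan of the stroma, had 5.85, 4.92 and 5.98 in summer and 6.06, 6.09 and 6.05 in autumn. HOXA10, a homeobox gene of the uterus, had 3.03, −0.13 and 3.02 in summer and 2.88, 3.55 and 3.31 in autumn. Summer replicate 2 stood apart from the other arrays. Its 75th percentile of processed signal was 2007 against 3947 to 4418 on the other CL-side arrays, and its median correlation with the other arrays was 0.928 against 0.979 or more. It is called the dim array below, and values without it are given beside many of the results that rest on it. Where no such value is given, a change may still rest on that array. All 6 summer arrays of both horns and autumn replicate 1 of each horn lay on a first slide, and the other autumn arrays lay on a second. Slide and season are therefore partly joined, and values with the slide as a block and within the first slide, where 3 summer arrays stand against 1 autumn array, are given for the leading results. In a bulk biopsy, fewer cells of a type and less RNA per cell cannot be told apart.

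No probe passed limma's adjusted threshold of 0.05 in summer against autumn, so every value below is a description of these 6 arrays, and "higher" and "lower" refer to the measured means. Of 12381 probes tested, 0 (0.0%) passed, and the smallest adjusted p was 0.484. At an unadjusted p under 0.05, 789 probes (6.37%) were higher in summer and 439 (3.55%) lower, which makes 1228 (9.92%) in all. All 3 summer arrays lay above all 3 autumn arrays for 980 probes (7.92%) and below them for 618 (4.99%). With 1 array left out, 2 probes passed without summer replicate 1, 4 without summer replicate 3 and 7 without autumn replicate 3, and 0 without any of the other 3. Without the dim array, 423 probes were higher and 255 lower at an unadjusted p under 0.05.

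Over named genes, with 1 probe each, 0 of 5735 (0.0%) passed the adjusted threshold. At an unadjusted p under 0.05, 403 named genes (7.03%) were higher and 224 (3.91%) lower in summer, 627 (10.9%) together. The arrays of the seasons did not overlap for 451 higher genes (7.86%) and 295 lower genes (5.14%). In the log2 table that the authors deposited for the same arrays, 241 of the former (4.2% of all named genes) and 261 of the latter (4.55%) did not overlap either. The mean was higher in summer for 3089 genes (53.9%) and lower for 2646 (46.1%). The counts of every list below stand against these shares. The median change over all named genes was 0.03 log2, and −0.043 in the authors' values. There, 349 probes were higher and 425 lower at an unadjusted p under 0.05, so the excess upward depends on the processing. A change is the summer mean minus the autumn mean, and the error after ± is its standard error from the 12-array fit. A change of at least 1 log2 was measured for 380 genes, 251 of them higher and 129 lower, and one of at least 3 log2 for 14 genes, 14 higher and 0 lower.

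**Figure D1:**
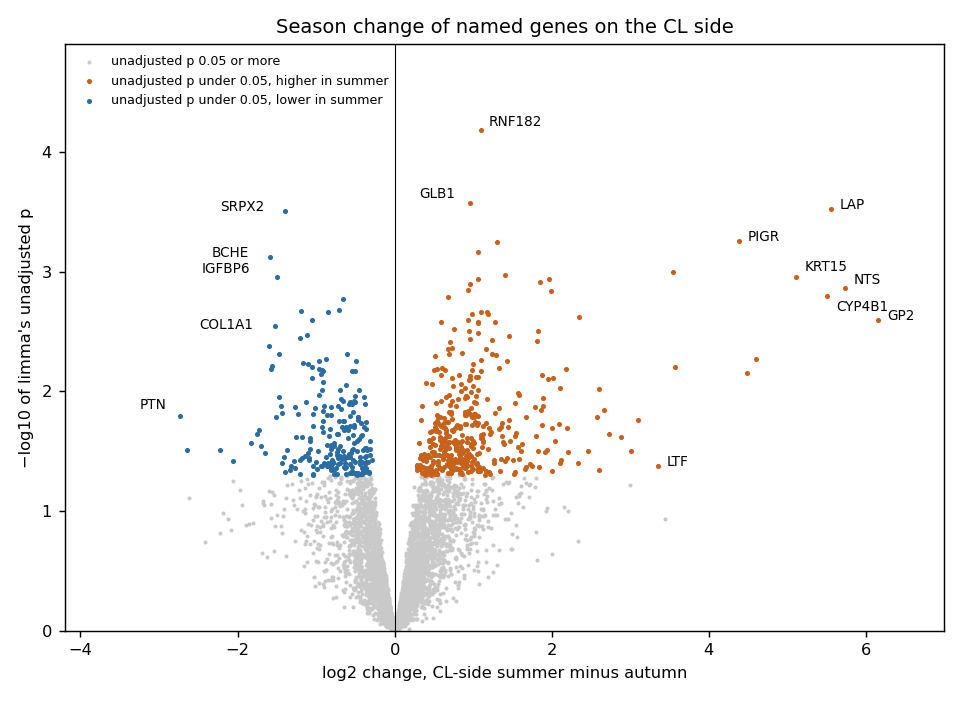
Each point is 1 of the 5735 named genes, with its log2 change from autumn to summer on the x axis and −log10 of limma's unadjusted p on the y axis. Orange points are higher and blue points lower in summer at an unadjusted p under 0.05, and GP2, NTS, LAP, CYP4B1 and KRT15 lie farthest to the right.

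The dim array carried many of the largest changes. It lay farther from the autumn arrays than both other summer arrays for 211 of the 251 genes that were higher by at least 1 log2 and for 103 of the 129 that were lower. Without it, 135 of the 380 genes kept a change of at least 1 log2 and 360 kept their sign. The median SD over named genes was 0.35 log2 on the CL side in summer, 0.17 in the same group without the dim array, and 0.22 in autumn. In the plot of change against p the genes with the smallest p were not always those with the largest change. RNF182, a ubiquitin ligase gene with the smallest p (unadjusted 6.5e-05, adjusted 0.484), had −5.94, −5.40 and −5.91 in summer and −6.80, −6.80 and −6.95 in autumn. GLB1, the lysosomal beta-galactosidase, had −4.53, −4.39 and −4.75 and −5.62, −5.49 and −5.44. Both were close to the low end of the scale, where a floor of −7.28 was set. The summer arrays of both genes lay above the autumn arrays by a narrow margin with little spread, and in the authors' values, which level off at low signals, RNF182 had a change of −0.071 and GLB1 of 0.31. With all 6 arrays, the adjusted p of every gene whose change is given below with its standard error lay between 0.484 and 0.542. For ACTG2, CNN1 and KRT14, whose changes appear only in the closing section, limma's unadjusted p was already 0.82, 0.56 and 0.57.

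Antimicrobial peptides and the immunoglobulin receptor of mucosal epithelia had higher values in summer. LAP, lingual antimicrobial peptide, is a beta-defensin that bovine epithelia make against bacteria. Its log2 signals were 1.11, −0.99 and −3.25 in summer and −6.67, −5.89 and −7.24 in autumn, a difference of 5.56 ± 1.05 or 47-fold. The lowest summer array, replicate 3, lay above the highest autumn array. The difference was 5.53 without the dim array, 3.58 in the authors' values, 4.87 with the slide as a block and 5.63 within the first slide. TAP, tracheal antimicrobial peptide, is the paralogous defensin of the airway. Its signals were 0.96, −0.55 and −4.08 in summer and −7.28, −3.16 and −7.01 in autumn, where replicate 1 was at the floor. Autumn replicate 2 lay above summer replicate 3, so the seasons overlapped, with a change of 4.59 ± 1.31 and of 2.90 in the authors' values.

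The probes of both defensins are alike over part of their length, which bears on whether their signals are separate measurements. Over the best alignment of 43 bases they differed at 13 positions, and over the window of 30 bases below at 9, shown in capitals.
LAP probe, bases 30 to 59: gACtGGatgcGGagtcagaaACtgTgccct
TAP probe, bases 13 to 42: gGAtCAatgcCCagtcagaaCGtgCgccct
Cross-hybridisation of either transcript with the other probe was not tested.

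PIGR, which carries polymeric IgA and IgM through epithelial cells to the lumen, had 1.87, 3.76 and −0.25 in summer and −2.31, −2.87 and −2.58 in autumn. The autumn arrays lay close together and below every summer array, with a change of 4.38 ± 0.89 and of 3.39 without the dim array. LTF, lactoferrin, an iron-binding protein of secretions and neutrophil granules, had 3.34, 7.73 and 3.23 in summer and 0.60, 2.48 and 1.17 in autumn. The dim array was far the highest, and the change of 3.35 ± 1.45 was 1.87 without it, and a further LTF probe gave 3.35. S100A8, a calcium-binding protein that sequesters metals, had −0.39, 0.42 and −1.13 in summer and −2.88, −2.02 and −2.19 in autumn, a change of 1.99 ± 0.47. S100A12, of the same family, had 2.12, 2.36 and 1.30 and 0.16, 1.27 and 0.34, and its lowest summer array was barely above its highest autumn array. Of the 20 tested genes of antimicrobial peptides and mucosal defence, 15 had a mean above autumn, 7 were higher at an unadjusted p under 0.05 (against 7.03% of all named genes) and 0 were lower. The list's median change was 0.93, against 0.03 for all named genes, 0.33 without the dim array, 0.18 in the authors' values, 0.78 with the slide as a block and 1.07 within the first slide. The mean of its genes, each relative to its own 12-array mean, was 0.98, 2.17 and 0.27 on the summer arrays and −0.54, 0.26 and −0.57 on the autumn arrays. Summer replicate 3 and autumn replicate 2 were close to equal on this measure.

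GP2, NTS and CYP4B1, named for the size of their change, had the highest values on the dim array. GP2, a membrane-anchored glycoprotein that binds the fimbriae of bacteria, had 0.21, 5.40 and 1.11 in summer and −4.15, −4.34 and −3.26 in autumn. Its change of 6.15 ± 1.56, or 71.2-fold, was the largest of all named genes, and it was 4.57 without the dim array. NTS, the precursor of the peptide neurotensin, had −0.95, 4.73 and −0.20 in summer and −4.82, −4.08 and −4.71 in autumn, a change of 5.73 ± 1.33 and of 3.96 without the dim array. CYP4B1, a cytochrome P450 that oxidises fatty acids and foreign compounds, had −1.15, 2.84 and −2.28 and −6.28, −4.75 and −6.05, a change of 5.50 ± 1.30 and of 3.99 without the dim array. For each of these 3 genes the other summer arrays, too, were above every autumn array, which the choice by size of change required. Within the first slide their changes were 6.39, 6.01 and 6.09.

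VNN1, a pantetheinase on the cell surface that releases cysteamine, had 0.55, 1.76 and −1.15 in summer and −2.08, −1.82 and −1.98 in autumn. The autumn arrays lay within a narrow range below all summer arrays, with a change of 2.35 ± 0.59. GCNT3, which adds branches to the sugar chains of mucins, had −2.11, 2.82 and −1.49 in summer and −3.93, −2.51 and −3.62 in autumn. Its change of 3.09 ± 1.1 became 1.56 without the dim array. ELF5, an ETS transcription factor of secretory epithelia, had −3.72, 2.29 and −2.65 and −6.64, −4.49 and −6.40, a change of 4.48 ± 1.34 and of 2.66 without the dim array. TMEM213, whose product is a membrane protein, had −4.20, −1.22 and −5.02 in summer and −6.53, −7.28 and −7.28 in autumn, where replicates 2 and 3 were at the floor. CHIA, the acidic mammalian chitinase, was at the floor on all 3 autumn arrays and at −5.95, −5.33 and −6.34 in summer, and in the authors' values its change was −0.025 instead of 1.40. KRT15, a keratin of basal epithelial cells, had 1.47, 3.57 and −1.07 in summer and −3.51, −4.57 and −3.27 in autumn, a change of 5.11 ± 1.15 that was 3.98 without the dim array.

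**Figure D2:**
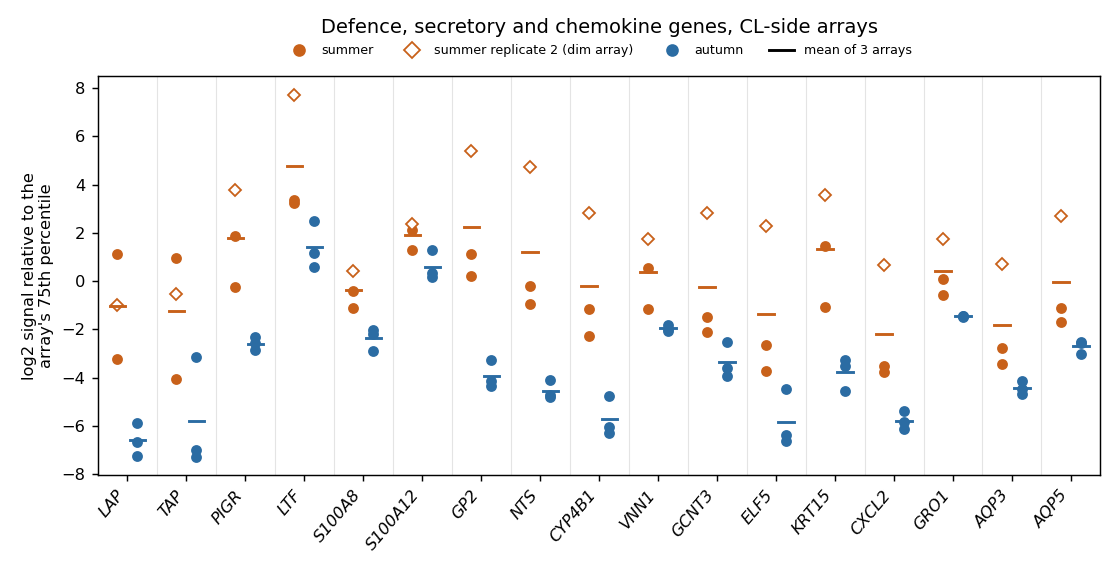
Log2 signal relative to the 75th percentile of the array, on the y axis, for 17 defence, secretory, chemokine and water channel genes on the 3 summer arrays (orange) and 3 autumn arrays (blue) of the CL side; bars are means of 3 arrays and the open diamond is the dim array. For all but TAP the summer arrays lie above the autumn arrays, and the diamond is the highest point for most genes but not for LAP or TAP. Levels of different genes come from different probes and are not to be set against each other.

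Among 31 tested markers of luminal and glandular epithelium, 27 had a higher mean in summer (against 53.9% of all named genes), 6 were higher at an unadjusted p under 0.05 (against 7.03%) and 0 were lower (against 3.91%). The median change was 0.60, and 0.41 without the dim array, 0.53 with the slide as a block and 0.27 within the first slide. SPINT1, a membrane-bound inhibitor of epithelial proteases, had −1.20, −0.72 and −2.39 in summer and −2.50, −2.85 and −2.69 in autumn. Summer replicate 3 was only just above the autumn arrays, and without that replicate the change was 1.72 instead of 1.25, with an adjusted p of 0.0306. That replicate was the summer array nearest to autumn, so leaving it out must widen the change. With all 6 arrays limma's adjusted p was 0.496. MUC1, a mucin anchored in the luminal surface, had 2.43, 3.84 and 2.39 in summer and 1.87, 1.05 and 2.40 in autumn, with autumn replicate 3 among the summer values. Its change of 1.11 was 0.64 without the dim array. Its further probes gave 2.39 and 1.27, but both had a mean of −6.1 over the 12 arrays, near the low end of the scale. In the authors' values those further probes gave 0.95 and 0.22. ERBB3, a receptor of the epidermal growth factor family, had 3.03, 3.06 and 2.67 and 2.59, 1.57 and 2.76, with overlap. The epithelial marker CDH1, E-cadherin, went the other way, with a lower mean in summer. Its signals were −1.19, 1.55 and 1.04 in summer and 0.71, 2.35 and 1.75 in autumn, with overlap. The score of the list was 0.10, 0.99 and −0.06 on the summer arrays and −0.14, −0.53 and −0.30 on the autumn arrays, highest on the dim array and without overlap between the seasons.

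Ion and water transport genes of the epithelium had higher values in summer. Of 16 aquaporin, sodium channel and sodium pump genes, 14 had a higher mean, and 6 were higher and 0 lower at an unadjusted p under 0.05, with a median change of 0.69 (0.39 without the dim array, 0.35 in the authors' values, 0.54 with the slide as a block, 0.49 within the first slide). AQP3, a channel for water and glycerol, had −2.76, 0.72 and −3.42 in summer and −4.68, −4.13 and −4.47 in autumn, a change of 2.60 ± 0.82. AQP5, a water channel of glands, had −1.1, 2.68 and −1.71 and −2.56, −2.51 and −3.04, a change of 2.66 ± 0.91. For both genes the dim array lay more than 3 log2 units above the other summer arrays, and the changes without it were 1.33 and 1.30. SCNN1A, the alpha subunit of the epithelial sodium channel, had −2.33, 0.89 and −2.51 in summer and −2.96, −2.96 and −3.19 in autumn. ATP6V1B1, a subunit of the proton pump of acid-secreting epithelia, had −2.31, 1.83 and −1.99 in summer and −4.28, −2.81 and −2.77 in autumn. In both, the other summer arrays were less than 1 log2 unit above the nearest autumn array. The changes of SCNN1A and ATP6V1B1, 1.72 and 2.46, were 0.62 and 1.14 without the dim array. ATP1B1, the beta subunit of the sodium pump, had −0.93, −0.33 and −1.01 in summer and −1.92, −2.08 and −1.31 in autumn. Its seasons did not overlap, and its change of 1.01 ± 0.35 was 0.80 without the dim array.

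Solute carriers, which move nutrients across membranes, mostly had slightly higher means in summer. Of 37 tested, 28 had a higher mean, 5 were higher (against 7.03% of all named genes) and 0 lower at an unadjusted p under 0.05, and the median change was 0.20, or 0.059 in the authors' values. SLC6A14, a transporter of neutral and basic amino acids, had −2.04, −0.24 and −3.59 in summer and −4.33, −3.69 and −4.39 in autumn, a change of 2.18 ± 0.64 and of 1.32 without the dim array. SLC22A5, which imports carnitine, had 0.23, 0.82 and 0.15 in summer and −0.26, −0.86 and 0.17 in autumn, with overlap at 1 array each. SLC5A6, which imports biotin and pantothenate, had −5.75, −4.64 and −5.32 and −6.08, −6.15 and −5.99, near the low end of the scale. SLC26A4, pendrin, an exchanger of chloride and iodide, was not well above background in autumn, had −6.25, −2.33 and −6.89 in summer, and stood at least 4.34-fold higher there. The bound sets the summer mean against the floor of −7.28, at which all 3 autumn arrays lay, so it restates the change of 2.12 log2. The dim array had by far the highest value. The change of 2.12 was 0.71 without that array, 0.98 with the floor raised by 2 log2 units and 0.52 in the authors' values.

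Genes of motile cilia had the highest median change of the 42 lists in the values used here with all 6 arrays, 1.25 over 20 tested genes, 19 of which had a higher mean in summer. At an unadjusted p under 0.05, 6 were higher and 0 lower, and the median was 0.87 without the dim array, 0.60 in the authors' values, where the immediate early genes stood level with it at 0.60, 2.07 with the slide as a block and 1.88 within the first slide. TEKT1, a filament protein of the axoneme, had −4.36, −3.42 and −4.54 in summer and −6.53, −6.62 and −4.85 in autumn. ARMC3, an armadillo-repeat protein, had −3.37, −2.79 and −3.40 and −5.74, −4.89 and −3.56. CCDC113, a coiled-coil protein of cilia, had −4.68, −3.46 and −5.05 in summer and −7.28, −6.17 and −5.32 in autumn, where replicate 1 was at the floor. In each of the 3 genes autumn replicate 3 lay close to the summer arrays and autumn replicates 1 and 2 far below. ROPN1L, a protein of ciliary radial spokes, showed the same order, with −0.56, 0.13 and −0.41 in summer and −3.04, −2.27 and −0.51 in autumn, and there the seasons overlapped. In the authors' values TEKT1 and CCDC113 overlapped too, with changes of 0.59 and 0.51, whereas ARMC3 did not, with 0.94. The ciliated score was 0.16, 1.1 and 0.15 on the summer arrays and −1.22, −0.97 and 0.26 on the autumn arrays.

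Markers of squamous and basal epithelium, the tissue of cervix and vagina, had both higher and lower members. Of 11 tested, 8 had a higher mean, 3 were higher and 1 was lower at an unadjusted p under 0.05, and the median change was 0.12. Besides KRT15, KRT5 had −5.32, −2.83 and −6.40 in summer and −6.61, −6.93 and −7.03 in autumn, a change of 2.01 ± 0.73 that was 1.0 without the dim array and 0.53 in the authors' values. KRT14, the usual partner of KRT5, had −3.42, −2.78 and −3.07 in summer and −3.18, −3.29 and −3.15 in autumn, with overlap. TGM1, a transglutaminase of cornified epithelia, had −3.49, −3.11 and −3.74 and −4.08, −3.99 and −3.92. S100A14, a calcium-binding protein of epithelia, was lower, with −1.72, −1.14 and −1.27 in summer and −0.76, −0.55 and −0.79 in autumn, without overlap and with a change of −0.68 ± 0.23.

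Chemokines that attract neutrophils through the receptors CXCR1 and CXCR2 had higher values in summer. GRO1, the array's name for CXCL1, had −0.58, 1.76 and 0.083 in summer and −1.46, −1.49 and −1.43 in autumn. The autumn arrays were almost equal and lay below all summer arrays, a change of 1.88 ± 0.68 and of 1.21 without the dim array. CXCL2 had −3.52, 0.66 and −3.76 in summer and −5.85, −6.13 and −5.38 in autumn, with a change of 3.58 ± 1.05 and of 2.14 without the dim array. CXCL3 had 2.35, 4.38 and 3.33 in summer and 2.05, 1.80 and 1.93 in autumn, a change of 1.43 ± 0.59 and of 0.91 without the dim array. These 3 genes are close paralogs, and their probes are nearly alike at the bases below, with mismatches in capitals.
GRO1 probe, bases 1 to 30: tgtcttCcttgtaaggcataatgccttgtt
CXCL3 probe, bases 2 to 31: tgtcttGcttgtaaggcataatgccttgtt
The pair differed at 1 of these 30 bases, and at 18 of the 59 bases over which the probes overlap. The CXCL2 probe differed from that of GRO1 at 4 of 30 bases.
GRO1 probe, bases 5 to 34: ttCcttgtaaggcaTaatgccttgtttAGt
CXCL2 probe, bases 1 to 30: ttTcttgtaaggcaCaatgccttgtttCAt
How far each signal comes from the named transcript was not tested, so the values of the 3 genes are uncertain as separate measurements.

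CXCL5, which the array's annotation also calls CXCL6, had −2.27, 0.055 and −4.35 in summer and −4.79, −3.33 and −5.09 in autumn, with overlap. CCL4, a chemokine for monocytes and natural killer cells, had −3.58, −2.19 and −3.31 in summer and −3.85, −3.57 and −3.72 in autumn, with slight overlap and a change of 0.69 ± 0.30 that was 0.27 without the dim array. Of 20 tested chemokines, 16 had a higher mean, 5 were higher and 0 lower at an unadjusted p under 0.05, with a median of 0.39 (0.24 without the dim array, 0.13 in the authors' values, 0.47 with the slide as a block, 0.43 within the first slide). CXCR1, the chemokine receptor of neutrophils, had −5.18, −4.64 and −3.39 in summer and −7.28, −7.28 and −4.97 in autumn, where replicates 1 and 2 were at the floor and replicate 3 overlapped the summer arrays. Of 10 tested genes of granulocytes and mast cells, 9 had a higher mean and 4 were higher at an unadjusted p under 0.05. The list's median change was 0.38, its score was 0.59, 0.96 and 0.57 on the summer arrays and −0.56, 0.11 and −0.25 on the autumn arrays, and it includes S100A8, S100A12 and LTF, which the defence list holds too. The acute phase protein gene SAA3 had 2.33, 7.52 and 3.83 in summer and 1.99, 3.32 and 2.55 in autumn, and its change of 1.94 ± 1.05 was 0.46 without the dim array.

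Genes of T cells and natural killer cells had higher values in summer by smaller amounts. Of 21 tested, 20 had a higher mean, 7 were higher and 0 lower at an unadjusted p under 0.05, and the median change was 0.56 (0.45 without the dim array, 0.13 in the authors' values, 0.55 with the slide as a block, 0.46 within the first slide). CD69, an early activation marker of lymphocytes, had −2.90, −2.94 and −2.96 in summer and −4.16, −3.83 and −4.01 in autumn. The 3 summer arrays were almost equal and above the autumn arrays, and the change was 1.07 ± 0.27 with and 1.07 without the dim array. GNLY, granulysin, a cytolytic granule protein, had −2.39, −1.20 and −2.91 in summer and −3.99, −3.31 and −3.49 in autumn, and a further probe gave a change of 1.46 against 1.43, which was 0.95 without the dim array. CD96, a receptor of T and natural killer cells, had −2.42, −1.67 and −3.0 in summer and −2.78, −3.84 and −3.20 in autumn, with overlap. CD3E, a chain of the T cell receptor complex, had −1.48, −1.56 and −2.23 in summer and −2.04, −2.69 and −2.52 in autumn, also with overlap.

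Cytokines and their receptors as a list had a median change of 0.20 over 29 genes, with 5 higher and 1 lower at an unadjusted p under 0.05, but of −0.015 in the authors' values. IFNG, interferon gamma, was not well above background in autumn, had −5.84, −6.03 and −6.73 in summer, and stood at least 2.1-fold higher there with the floor used here. Its change was −0.10 in the authors' values, and all 6 arrays lay at the floor when that was raised by 2 log2 units, so its direction depends on how low signals are treated. IL15, a cytokine that sustains natural killer cells, had −5.49, −5.41 and −6.07 in summer and −6.57, −6.79 and −6.79 in autumn, a change of 1.06 ± 0.34 but of 0.003 in the authors' values. IL2RA, the alpha chain of the interleukin-2 receptor, had −3.88, −2.92 and −3.85 and −4.32, −4.10 and −4.20, without overlap. In the authors' values its seasons overlapped, with a change of 0.39 against 0.66 here. IL13RA1, a chain of the receptors for interleukins 4 and 13, was lower, with 1.30, 0.18 and 1.14 in summer and 2.04, 1.62 and 1.39 in autumn. Its change was −0.81 ± 0.28, and −0.46 without the dim array, whereas another probe of the same gene gave 0.47.

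Interferon-stimulated genes, which the bovine endometrium also switches on under interferon tau from an embryo, had a median change of 0.19 over 26 genes. Of these, 21 had a higher mean, 6 were higher and 0 lower at an unadjusted p under 0.05. The score was 0.13, 0.19 and 0.091 on the summer arrays and −0.28, −0.025 and −0.16 on the autumn arrays, without overlap and with the dim array highest. MX2, an antiviral GTPase, had −4.67, −4.31 and −5.60 in summer and −7.28, −6.43 and −6.79 in autumn, a change of 1.97 ± 0.45 but of 0.32 in the authors' values. OAS1X, of the enzymes that sense double-stranded RNA, had −3.13, −2.23 and −2.88 in summer and −4.32, −3.14 and −3.54 in autumn. RIGI, a sensor of viral RNA, had −0.96, −0.20 and −0.77 and −1.33, −0.99 and −1.1. XAF1, an interferon-induced partner of apoptosis inhibitors, had 0.25, 0.80 and 0.29 in summer and −0.30, −0.0018 and 0.018 in autumn, and for all 4 genes the seasons did not overlap. In antigen presentation, 13 of 15 genes had a higher mean (against 53.9% of all named genes), with a median of 0.25 (0.15 without the dim array). At an unadjusted p under 0.05, 1 was higher (6.67%, against 7.03% of all named genes) and 0 were lower. PSMB9, a subunit of the immunoproteasome, had 1.59, 1.68 and 1.1 in summer and 0.60, 1.04 and 0.82 in autumn, a change of 0.64 ± 0.19. B2M, the light chain of class I molecules, had 5.01, 5.89 and 4.75 and 4.59, 4.65 and 4.73, a change of 0.56 ± 0.27 that was 0.23 without the dim array.

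Complement genes went both ways, with 4 higher and 2 lower at an unadjusted p under 0.05 among 31 and a median of 0.012. C8B, a component of the membrane attack complex, had −6.52, −4.46 and −5.17 in summer and −7.25, −7.16 and −7.28 in autumn. Its seasons did not overlap, and its change was 1.85 ± 0.42, 1.39 without the dim array, 0.31 with the floor raised by 2 log2 units and 0.14, with overlap, in the authors' values. Without summer replicate 1 it passed the threshold, with a change of 2.41 and an adjusted p of 0.0430. That replicate was the summer array nearest to autumn, so leaving it out must widen the change. C4BPA, a chain of the C4b-binding protein, which restrains complement, had −1.46, −1.70 and −5.48 in summer and −3.66, −5.52 and −7.28 in autumn, with wide spread in both seasons. CD55, which speeds the decay of complement convertases on cells, had 0.49, 0.58 and 0.28 and 0.012, −0.36 and −0.19, a change of 0.63 ± 0.23. SERPING1, the inhibitor of the first complement component, was lower, with 1.46, 1.24 and 1.52 in summer and 1.98, 2.07 and 1.75 in autumn and no overlap. THBD, thrombomodulin, an anticoagulant receptor, had −0.0086, 1.32 and 0.13 in summer and −0.24, −0.70 and −0.052 in autumn. Its change of 0.81 was 0.39 without the dim array. The median for macrophages and dendritic cells was −0.32 in 19 genes, and 0 had an unadjusted p under 0.05 in either direction. That median was 0.10 without the dim array, on which the scavenger receptor gene MSR1 was lowest (−2.71, −5.38 and −2.54 in summer, −2.88, −2.15 and −2.74 in autumn).

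Genes of stromal fibroblasts had lower values in summer. Of 30 tested, 24 had a lower mean, 13 were lower (against 3.91% of all named genes) and 1 was higher at an unadjusted p under 0.05, and the seasons did not overlap for 12 lower and 0 higher genes. The median change was −0.62, and −0.46 without the dim array, −0.55 in the authors' values, −0.94 with the slide as a block and −0.66 within the first slide. The score was −0.31, −0.35 and 0.045 on the summer arrays and 0.44, 0.54 and 0.043 on the autumn arrays, so summer replicate 3 and autumn replicate 3 were nearly level. Most epithelial markers had the opposite direction on the same arrays, but CDH1, given above, did not. The part of the makeup of the biopsies in either result was not tested.

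SRPX2, a secreted protein with sushi repeats, had −4.25, −4.71 and −3.77 in summer and −2.73, −2.46 and −3.36 in autumn. Every summer array lay below every autumn array, and its change of −1.39 ± 0.26 was −1.16 without the dim array and −1.51 within the first slide. COL1A1 encodes the first chain of type I collagen and had −3.75, −3.62 and −2.56 in summer and −1.20, −1.84 and −2.31 in autumn, without overlap, with a change of −1.53 ± 0.39. COL1A2, the other chain, had −0.064, −2.56 and 0.85 and 0.99, 1.33 and 1.16, a change of −1.75 ± 0.66 that was −0.77 without the dim array. COL3A1, type III collagen, had 5.14, 3.39 and 5.70 in summer and 5.78, 5.99 and 5.78 in autumn, and here too the dim array was the lowest. OGN, osteoglycin, a small proteoglycan, had −5.56, −6.08 and −4.20 in summer and −3.46, −3.59 and −3.98 in autumn. MXRA5, a secreted adhesion protein, had −5.37, −5.93 and −4.52 and −3.50, −3.18 and −4.40. Both were lower in summer without overlap, with changes of −1.60 ± 0.44 and −1.58 ± 0.47, and of −0.91 and −1.02 in the authors' values. PDGFRA, the receptor through which platelet-derived growth factor drives fibroblasts, had −4.44, −6.22 and −3.92 in summer and −3.33, −3.32 and −3.53 in autumn. The autumn arrays agreed closely, and the change of −1.47 ± 0.48 was −0.79 without the dim array. THY1, a surface glycoprotein of fibroblasts, had 2.56, 2.27 and 3.29 and 3.37, 4.29 and 3.63, a change of −1.06 ± 0.31. IGFBP6, a carrier of insulin-like growth factor II, had 0.51, −0.018 and 1.21 in summer and 1.95, 2.53 and 1.70 in autumn, without overlap and with a change of −1.49 ± 0.34. BCHE, butyrylcholinesterase, had −7.01, −6.66 and −6.63 in summer and −4.67, −5.19 and −5.66 in autumn, a change of −1.59 ± 0.34 near the low end of the scale and of −0.53 in the authors' values.

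**Figure D3:**
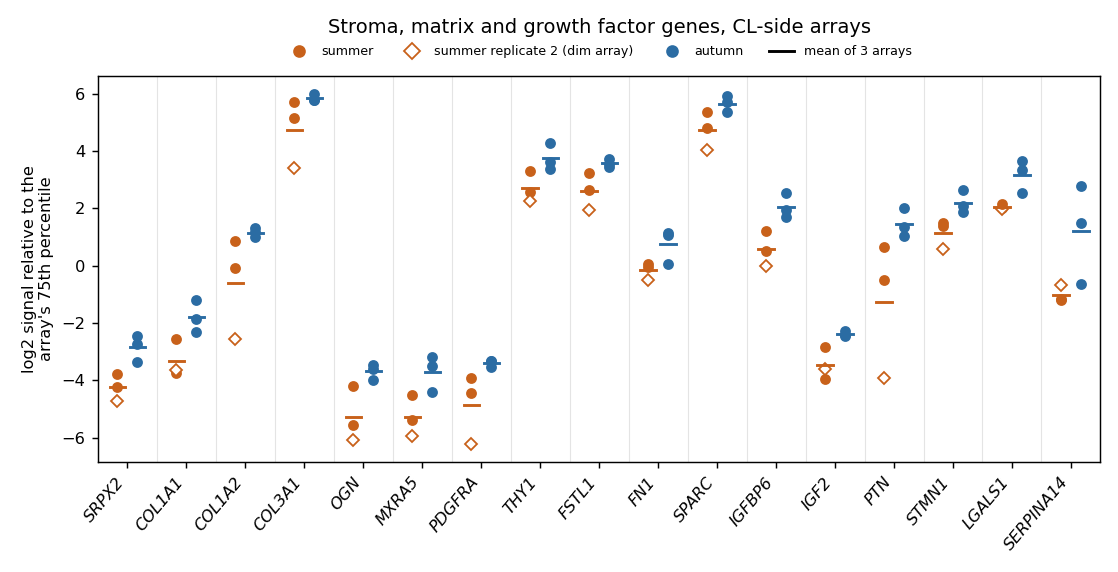
Log2 signal relative to the 75th percentile of the array, on the y axis, for 17 stroma, matrix, growth factor and uterine genes on the 3 summer arrays (orange) and 3 autumn arrays (blue) of the CL side; bars are means of 3 arrays and the open diamond is the dim array. The summer points lie below the autumn points for most genes, the diamond is the lowest point for COL1A2, COL3A1 and PTN but not for COL1A1, and SPARC overlaps.

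Matrix glycoproteins and crosslinking enzymes had mostly lower means. Of 32 tested, 22 had a lower mean, 8 were lower and 2 higher at an unadjusted p under 0.05, and the median was −0.45 (−0.26 without the dim array, −0.33 with the slide as a block, −0.28 within the first slide). FN1, fibronectin, had −0.028, −0.48 and 0.057 in summer and 1.06, 1.15 and 0.059 in autumn, with replicate 3 of both seasons almost level. Its change was −0.91 ± 0.28, against −0.10 for another FN1 probe, whose mean over the 12 arrays was −5.75, near the low end of the scale. SPARC, a collagen-binding matrix protein, had 4.79, 4.04 and 5.36 in summer and 5.70, 5.91 and 5.35 in autumn, and the highest summer array just passed the lowest autumn array. BGN, biglycan, had 1.93, 1.59 and 2.48 and 2.58, 3.01 and 2.54, a change of −0.71 ± 0.25. LOXL1, which crosslinks elastin, had −2.73, −3.63 and −2.15 in summer and −1.53, −1.03 and −2.27 in autumn, with overlap. FKBP10, a collagen chaperone, had 0.44, 0.048 and 0.96 in summer and 1.16, 1.89 and 1.14 in autumn, without overlap and with a change of −0.92 ± 0.27. Among 35 matrix proteases and inhibitors, 25 had a lower mean and the median was −0.18. MMP19, a metalloproteinase, had −4.59, −6.04 and −3.92 in summer and −4.35, −3.17 and −3.63 in autumn. TIMP1, an inhibitor of metalloproteinases, had 0.092, 0.11 and 0.66 and 0.71, 1.22 and 0.63, with overlap in each.

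Growth factors and signalling genes had changes in both directions. PTN, pleiotrophin, a heparin-binding growth factor, had −0.51, −3.92 and 0.64 in summer and 1.05, 2.02 and 1.33 in autumn. Its change of −2.73 ± 0.96 was the most negative of all named genes, its seasons did not overlap in these or the authors' values, and it was −1.41 without the dim array. PGF, placental growth factor, had 1.12, −2.30 and 1.57 in summer and 1.60, 1.62 and 1.79 in autumn, a change of −1.54 ± 0.78 that was −0.33 without the dim array. GJA1, connexin 43, which joins stromal cells through gap junctions, had 3.65, 1.08 and 4.11 and 4.17, 4.97 and 4.80, a change of −1.70 ± 0.67 and of −0.77 without the dim array. PDGFC, a platelet-derived growth factor, went the other way, with 0.82, 2.33 and 0.55 in summer and 0.63, 0.29 and 0.17 in autumn. Its change of 0.87 was 0.32 without the dim array. BTC, betacellulin, a ligand of epidermal growth factor receptors, had −1.48, −0.90 and −2.57 in summer and −2.36, −3.22 and −3.05 in autumn, with overlap. The list of growth factors and receptors had a median of 0.076 over 28 genes (0.0041 without the dim array and −0.062 in the authors' values).

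WNT pathway genes had a median of −0.63 over 15 genes, next to −0.62 for the stromal fibroblasts, with 3 lower and 1 higher at an unadjusted p under 0.05. The median was −0.20 without the dim array, −0.65 with the slide as a block and −0.48 within the first slide. WNT2B, a ligand, had −5.63, −5.60 and −4.63 in summer and −4.08, −4.74 and −4.61 in autumn, with overlap. FRZB, a secreted antagonist of WNT ligands, had −4.84, −3.48 and −3.52 and −2.40, −2.77 and −3.42, a change of −1.08 ± 0.43. AXIN1, a scaffold of the complex that destroys beta-catenin, had −3.37, −3.58 and −2.95 in summer and −2.70, −2.68 and −2.63 in autumn, without overlap. LRP5, a co-receptor, was higher, with −0.64, −0.28 and −0.68 in summer and −0.83, −1.30 and −0.76 in autumn. In the TGF-beta and BMP pathway the median was −0.14 over 27 genes (−0.074 without the dim array), 3 lower and 1 higher at an unadjusted p under 0.05. FSTL1, a secreted follistatin-like protein, had 2.63, 1.95 and 3.24 in summer and 3.56, 3.71 and 3.45 in autumn, without overlap and with a change of −0.97 ± 0.28 that was −0.64 without the dim array. ACVR1, a type I receptor, had −3.79, −4.74 and −3.46 and −3.15, −3.30 and −3.45, a change of −0.69 ± 0.29 and of −0.32 without the dim array. ID2, a target of BMP signals that blocks differentiation factors, was higher, with 2.87, 4.29 and 2.72 in summer and 2.50, 2.31 and 2.32 in autumn, a change of 0.92 ± 0.37 and of 0.42 without the dim array.

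Genes tied to progesterone and to uterine secretion had no common direction. Of 36 tested, 19 had a higher and 17 a lower mean, 2 were higher and 4 lower at an unadjusted p under 0.05, and the median was 0.075 (0.21 without the dim array and 0.0038 in the authors' values). SERPINA14, the uterine serpin, a major progesterone-driven protein of ruminant uterine fluid, had −1.20, −0.67 and −1.16 in summer and 2.79, 1.48 and −0.64 in autumn. The summer arrays lay together, autumn replicate 3 was just above them and autumn replicates 1 and 2 were far above, a change of −2.22 ± 0.89. LGALS1, galectin-1, a lectin of stromal cells, had 2.02, 1.98 and 2.17 in summer and 3.33, 3.64 and 2.54 in autumn. The summer arrays lay close together and below every autumn array, and the change was −1.11 ± 0.29, nearly the same without the dim array at −1.07. IHH, Indian hedgehog, a progesterone-induced signal of the epithelium, had 1.06, −4.11 and 0.99 in summer and 1.94, 0.80 and 0.78 in autumn, and the dim array lay far below the others. Its change of −1.86 ± 1.12 was −0.15 without the dim array.

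Receptors for steroids and oxytocin and their partners had a median change of −0.0046 over 19 genes, 0 of them higher and 1 lower at an unadjusted p under 0.05. PGR, the progesterone receptor, had −0.96, −1.71 and −1.21 in summer and −1.1, −1.1 and −1.01 in autumn, with overlap. PGRMC2, a membrane-associated progesterone receptor component, had −0.90, −0.87 and −0.79 in summer and −0.62, −0.46 and −0.55 in autumn, a small change of −0.31 ± 0.12 without overlap. PAQR7, a membrane progestin receptor, had −1.12, −2.21 and −0.48 and −0.81, −0.035 and −0.55. HSD11B1, which regenerates active glucocorticoid, had −3.82, −4.44 and −4.46 in summer and −6.30, −5.02 and −5.02 in autumn, above the autumn arrays in every summer array. In the authors' values its seasons overlapped, with a change of 0.47 against 1.21 here.

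Prostaglandin genes, whose products regress or sustain the corpus luteum, had a median of 0.20 over 29 genes, with 1 higher and 1 lower at an unadjusted p under 0.05. That median was 0.10 without the dim array, 0.035 with the slide as a block and −0.036, with the sign turned, in the authors' values. TBXA2R, the thromboxane receptor, had −5.66, −4.40 and −4.58 in summer and −6.23, −6.02 and −5.89 in autumn, a change of 1.16 ± 0.32 but of 0.17 in the authors' values. CBR3, a carbonyl reductase, had −0.63, −0.71 and −0.34 in summer and −0.17, 0.49 and −0.29 in autumn. PTGER3, a prostaglandin E receptor, had −3.89, −6.45 and −3.82 and −3.13, −3.77 and −3.64, a change of −1.20 ± 0.61 and of −0.34 without the dim array. PTGDS, a prostaglandin D synthase, had 2.77, 2.81 and 2.69 in summer and 3.13, 3.02 and 3.24 in autumn, slightly lower on every summer array.

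Within the insulin-like growth factor system, 1 of 15 genes was higher and 4 were lower at an unadjusted p under 0.05. IGFBP1, a binding protein of the luminal epithelium in ruminants, had 2.88, 1.71 and 1.35 in summer and 0.09, −1.04 and 0.85 in autumn, a change of 2.01 ± 0.61 and of 2.15 without the dim array. IGFBP4, another carrier, had 0.69, 0.60 and 1.01 in summer and 1.08, 1.27 and 1.21 in autumn. IGF2, a growth factor of the stroma, had −3.95, −3.60 and −2.84 and −2.26, −2.42 and −2.47. GHR, the growth hormone receptor, had −3.12, −4.28 and −2.40 in summer and −2.63, −1.57 and −2.57 in autumn, with overlap. IGFBP1 thus stood above autumn and IGFBP6, IGFBP4 and IGF2 below it on all summer arrays.

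Cell division genes had lower values in summer, with a median of −0.39 over 44 genes (−0.25 without the dim array, −0.44 with the slide as a block, −0.38 within the first slide). Of these, 38 had a lower mean, 7 were lower and 1 was higher at an unadjusted p under 0.05. The score was −0.16, −0.16 and −0.09 on the summer arrays and 0.36, 0.75 and −0.10 on the autumn arrays, so autumn replicate 3 lay among the summer arrays. STMN1, stathmin, which takes apart microtubules in dividing cells, had 1.37, 0.59 and 1.48 in summer and 2.08, 2.65 and 1.86 in autumn, without overlap. CCNA2, cyclin A2, had −5.05, −5.56 and −4.95 in summer and −4.45, −3.19 and −4.80 in autumn, and AURKB, a mitotic kinase, had −4.49, −4.18 and −4.38 and −3.18, −2.41 and −4.23. CDCA3, a mitotic regulator, had −4.30, −3.93 and −4.21 in summer and −1.96, −0.64 and −4.38 in autumn. Its 3 summer arrays lay close together, while autumn replicate 3 was the lowest of all 6 arrays and the other autumn arrays were far higher. Without autumn replicate 3, CDCA3 passed the threshold with a change of −2.85 and an adjusted p of 0.0485, as did CENPF, a kinetochore protein, with −2.66 and 0.0385. For CDCA3, leaving out the lowest autumn array must widen the change, and with all 6 arrays limma's adjusted p was 0.496.

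Immediate early genes, which cells and handled tissue switch on within minutes, had higher values in summer, with a median of 0.75 over 27 genes (0.61 without the dim array, 0.87 with the slide as a block, 0.74 within the first slide). Of these, 24 had a higher mean, and 7 were higher and 0 lower at an unadjusted p under 0.05. ATF3, a stress-induced transcription factor, had −0.92, 3.29 and 1.92 in summer and −1.31, −1.21 and −2.20 in autumn, a change of 3.0 ± 1.21 and of 2.07 without the dim array. NR4A2, an orphan nuclear receptor, had 0.44, 3.65 and 2.29 and 0.10, 0.21 and −0.077, a change of 2.05 ± 0.79 and of 1.29 without the dim array. In both, summer replicate 1 was close to the autumn arrays and replicates 2 and 3 well above. IER2 had 2.85, 3.79 and 4.11 in summer and 2.38, 2.50 and 1.70 in autumn. IER3, which modulates cell survival, had 2.70, 3.72 and 2.72 in summer and 2.17, 2.22 and 1.66 in autumn, and MAFF, a small Maf factor, had −0.28, 0.54 and −0.12 and −0.61, −1.1 and −0.72. The score was −0.25, 0.98 and 0.93 on the summer arrays and −0.28, −0.16 and −0.60 on the autumn arrays, with overlap.

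Apoptosis genes had a median of 0.23 over 24 genes, with 5 higher (against 7.03% of all named genes) and 0 lower at an unadjusted p under 0.05, and 7 higher without overlap (against 7.86%). The median was 0.13 in the authors' values. BAX, which opens the outer mitochondrial membrane, had −1.33, −2.01 and −2.11 in summer and −2.45, −2.61 and −2.57 in autumn, a change of 0.73 ± 0.20 and of 0.82 without the dim array. CASP8, the initiator caspase of death receptors, had −2.78, −2.04 and −3.04 in summer and −3.52, −3.26 and −3.54 in autumn. PERP, a p53 target of desmosomes, had 0.031, 1.39 and 0.079 and −0.61, −0.36 and −0.31. Its change of 0.93 was 0.48 without the dim array. For these 3 genes every summer array lay above every autumn array.

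Heat shock genes showed little difference between the seasons. Of 40 heat shock proteins and chaperones, 25 had a higher mean, but 0 were higher and 0 lower at an unadjusted p under 0.05, and the median was 0.027 (−0.056 without the dim array). DNAJB1, a heat-inducible partner of HSP70, had 1.26, 1.59 and 1.02 in summer and 0.52, 0.99 and 1.07 in autumn, with overlap. HSPA8, the constitutive member of that family, had 4.90, 4.66 and 4.65 in summer and 5.14, 5.12 and 4.77 in autumn. HSPA9, its mitochondrial form, had −1.35, −1.47 and −1.72 and −1.73, −1.92 and −1.83. The score was −0.033, 0.21 and −0.092 on the summer arrays and 0.012, 0.0052 and −0.066 on the autumn arrays.

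Antioxidant enzymes had a median of 0.13 over 44 genes (0.058 without the dim array and 0.055 in the authors' values), with 3 higher and 0 lower at an unadjusted p under 0.05. GSTA2, a glutathione transferase, had −1.54, −0.54 and −2.84 in summer and −3.74, −4.05 and −2.83 in autumn, where the lowest summer array was just below the highest autumn array, with a change of 1.90 ± 0.64. GSTK1, another such enzyme, had −3.15, −3.17 and −3.43 in summer and −4.27, −4.03 and −3.60 in autumn. PRDX1, a peroxiredoxin, had 5.22, 5.0 and 4.28 and 4.43, 4.23 and 4.18, with overlap. Of 32 genes of the unfolded protein response and secretory folding, 4 were lower and 0 higher at an unadjusted p under 0.05, with a median of −0.024. PPIB, a prolyl isomerase that folds collagen, had 1.0, 0.79 and 0.90 in summer and 1.25, 1.57 and 1.06 in autumn, and SSR2, a part of the translocon, had 4.53, 4.86 and 4.67 and 5.01, 5.16 and 4.87. Both were lower on every summer array, as was FKBP10 above, which that list also holds.

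Energy and lipid metabolism showed single genes rather than groups. PLIN2, a coat protein of lipid droplets, had 0.10, 0.37 and −0.22 in summer and −0.39, −0.36 and −0.64 in autumn, without overlap. DHCR7, the last enzyme of cholesterol synthesis, had 1.53, 1.66 and 0.51 and 0.50, 0.26 and 0.72. The list of cholesterol, steroid precursor and fatty acid metabolism had a median of 0.11 over 37 genes (0.21 without the dim array), with 4 higher and 0 lower at an unadjusted p under 0.05. Genes of glycolysis and hypoxia had 0.031 over 25, with the sign turned without the dim array (−0.13). ADM, adrenomedullin, a peptide that dilates vessels, had 3.21, 2.93 and 3.51 in summer and 3.62, 4.78 and 3.59 in autumn, with a change of −0.78 ± 0.30. ANKRD37, a hypoxia-induced gene, had −0.54, −0.92 and −1.22 in summer and −1.71, −1.95 and −2.21 in autumn, with a change of 1.06 ± 0.47 the other way. The mitochondrial respiratory chain had a median of 0.062 over 74 genes with 0 of them at an unadjusted p under 0.05, and cytosolic ribosomal proteins 0.01 over 66 genes with 1 lower (0.015 and −0.19 without the dim array).

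Seasonal and stress hormone genes were measured as well. ADRA1B, an alpha-1 receptor, had −5.82, −4.71 and −5.15 in summer and −5.81, −6.00 and −5.68 in autumn, with overlap. MAOB, which degrades amines, had −6.62, −6.50 and −5.61 and −4.46, −5.06 and −5.69, lower in summer, with overlap. Of 8 tested clock genes, 1 was higher at an unadjusted p under 0.05 (median −0.092). BHLHE41, a transcriptional repressor of the clock, had 0.43, 0.82 and −0.57 in summer and −0.62, −0.95 and −0.79 in autumn, and its lowest summer array was just above its highest autumn array. NFIL3, another repressor, had −5.10, −4.77 and −4.07 in summer and −3.17, −3.96 and −4.38 in autumn.

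**Figure D4:**
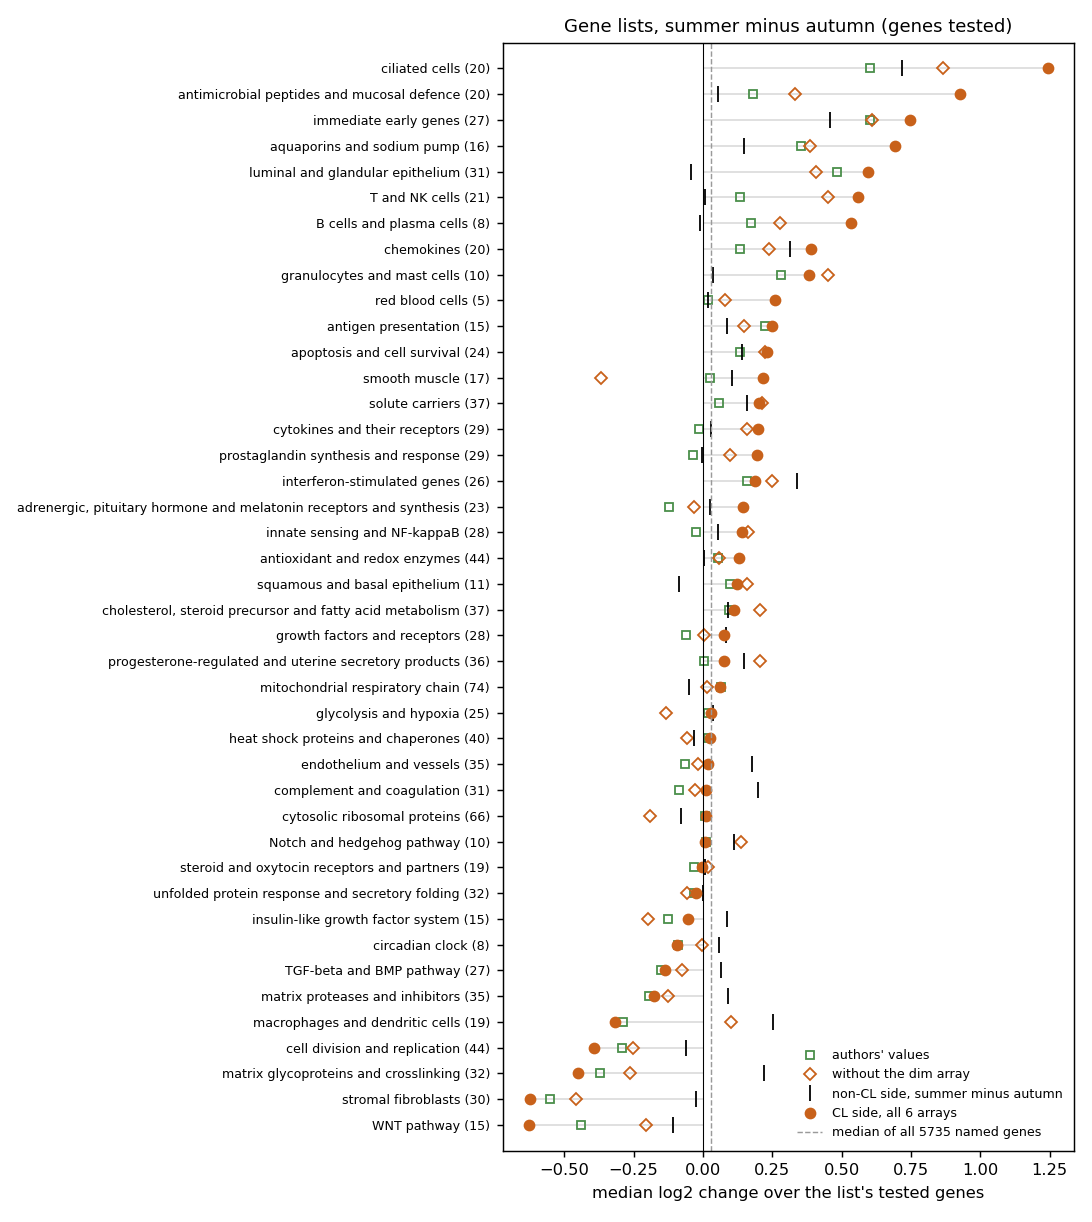
Median log2 change from autumn to summer, on the x axis, for 42 gene lists with the number of tested genes in brackets; filled circles use all 6 CL-side arrays, squares the authors' values, diamonds leave out the dim array and ticks give the non-CL side. The dashed line is the median of all 5735 named genes, 0.03; ciliated cells stand at 1.25 and the WNT pathway at −0.63, and most diamonds lie nearer 0 than the circles.

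Smooth muscle of the myometrium, which a deep biopsy can reach, varied within each season. CNN1, calponin, had 3.01, 5.19 and 2.16 in summer and 4.68, 2.08 and 1.63 in autumn. ACTG2, smooth muscle gamma actin, had 1.99, 2.92 and −0.40 in summer and 3.76, 0.65 and −0.92 in autumn. Both were highest on the dim array and on autumn replicate 1. The list's score was −0.13, 1.23 and −0.34 on the summer arrays and 1.07, −0.24 and −0.44 on the autumn arrays, and its median change of 0.22 over 17 genes was −0.37 without the dim array and 0.024 in the authors' values. The part of this difference in the results above was not tested. The median for B cells and plasma cells was 0.53 in 8 genes with 0 at an unadjusted p under 0.05, and it was 0.28 without the dim array and 0.17 in the authors' values. For red blood cell genes it was 0.26 over 5 with 1 higher, and 0.079 without the dim array and 0.017 in the authors' values. Endothelial genes had 0.02 over 35 with 0 in either direction.

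Many of the genes that separated the seasons upward had low signals. Of the 451 named genes whose summer arrays all lay above the autumn arrays, 210 overlapped in the authors' values. For 186 of these 210 the autumn mean was below −4.18, the highest of the levels at which single arrays of the authors' table bottom out, against 9 of the 241 genes that did not overlap in either set of values. Downward, 34 of 295 genes overlapped in the authors' values, and 29 of them were below that level in summer, against 16 of 261. Of all named genes, 18 were well above background on all 3 summer arrays and on 0 autumn arrays, and 1 the reverse. The latter was CDC45, a replication factor, at least 1.56-fold lower in summer and with −0.29 in the authors' values. With the floor used here, NUAK2, a kinase of the AMPK family, was at least 2.37-fold higher in summer. SLC43A3, a purine base transporter, was at least 1.94-fold higher with that floor. In the authors' values, the changes of NUAK2 and SLC43A3 were −0.075 and −0.11.

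Fewer named genes had an unadjusted p under 0.05 on the non-CL side, 65 against 627, but no difference between the horns passed a test. Over the 5735 named genes, 0 (0.0%) had a season change that differed between the horns at an adjusted p under 0.05, and 116 (2.02%) did at an unadjusted p under 0.05. Over 12381 probes the counts were 0 (0.0%) and 233 (1.88%). Across genes, which are not independent replicates, the changes of the horns correlated at r = 0.40 (Spearman 0.34), and 62.4% had the same sign. For the 403 genes higher on the CL side at an unadjusted p under 0.05, 75.2% had the same sign on the non-CL side, with a median of 0.90 on the CL side and 0.17 on the other. For the 224 lower genes, 72.8% had the same sign, with medians of −0.72 and −0.11. Since these genes were picked by their CL-side p, a smaller value on the other side follows in part from that choice.

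PTN, LAP and FN1 illustrate the range. LAP had a change of 5.56 on the CL side and 1.14 on the non-CL side, a difference between the horns of 4.42 ± 1.48 (adjusted p = 0.999). FN1 had −0.91 and 0.34, a difference of −1.25 ± 0.40, and SRPX2 had −1.39 and −0.11, a difference of −1.28 ± 0.37 (adjusted p = 0.999 for both). PTN had −2.73 and −0.56. On the CL and the non-CL side, BAX had 0.73 and 0.68, and OAS1X had 0.92 and 1.17. RIGI had 0.50 and 0.50. In the stroma list the median was −0.62 on the CL side and −0.023 on the non-CL side, and in the immediate early list 0.75 and 0.46.

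**Figure D5:**
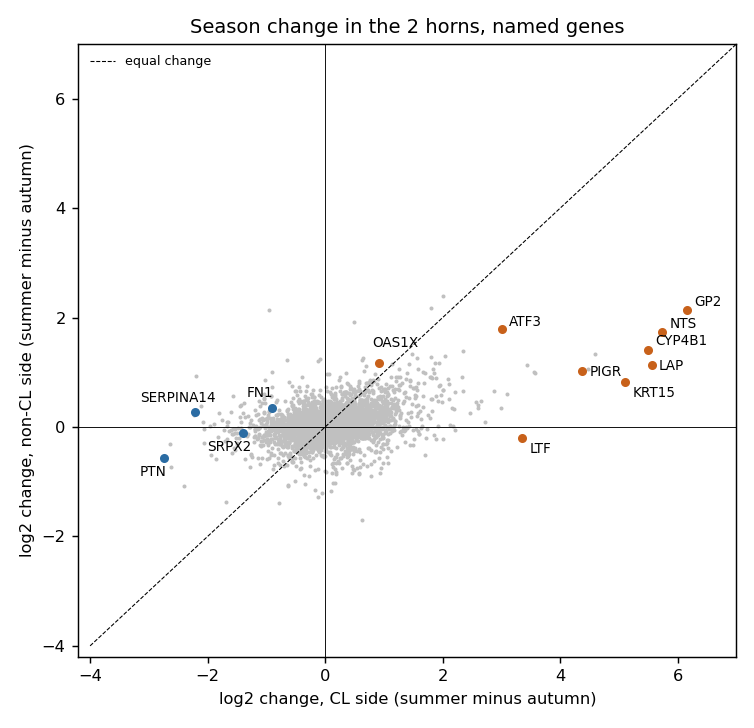
Each point is a named gene, with its log2 change from autumn to summer on the CL side on the x axis and on the non-CL side on the y axis; the dashed line marks equal change. GP2, NTS, LAP and KRT15 lie far to the right and below the line, OAS1X lies close to it, and the cloud is wider along the x axis than along the y axis.

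Of the probes with no gene symbol, 6385 were tested, and the seasons did not overlap for 523 higher and 314 lower. Over all 12381 probes the shares without overlap were 7.92% higher and 4.99% lower. The probe ABR3623, which reads caataattgtatgtattatgtactgctata in its first 30 bases, had 0.89, 0.95 and 0.35 in summer and −1.14, −0.84 and −0.34 in autumn, a change of 1.51 ± 0.33. Going lower, ABR7345, which begins with acgcgtggagggtatatcagggaaacagat, had −3.88, −4.04 and −3.44 in summer and −2.39, −2.44 and −2.87 in autumn, a change of −1.22 ± 0.25. Both were picked by small p among unnamed probes whose seasons did not overlap in these or the authors' values. Their direction was thus fixed in advance in the authors' values, at 1.5 and −1.1. The same holds without the dim array, at 1.40 and −1.09. Their sequences are printed because no name can stand for them.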

How the data were processed

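Signals of 12 single-colour arrays were used. Per the file headers, the authors extracted the intensity of each spot with background subtraction and spatial detrending, and per the submitters' processing notes with Agilent Feature Extraction 9.5. The authors also deposited a log2 table of the same arrays, which was used as an alternative: for bright probes it equals log2 of the processed intensity over the 75th percentile of the array, and low signals level off at a level that differs between arrays; the sources used here do not give how it was made.

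Here the processed intensity of each array was divided by its 75th percentile over non-control probes, raised to a floor of −7.28 log2 (2.06% of kept values) and taken to log2. Spots with outlier flags, 466 values, were left out. Of 15208 non-control probes, 12404 were kept because every array of some group measured them well above background; 12381 gave a p. A gene was represented by its brightest probe. Names came from the array's annotation through RefSeq symbols, and 8183 probes have none.

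A model of the 4 group means was fitted to all 12 arrays with limma 3.58.1 (R 4.3.3; 8 residual degrees of freedom), with Benjamini-Hochberg adjustment over all probes. The fit was checked on simulated data. The number of arrays limits the precision. Genes are named where they had the smallest p, had the largest change without overlap in both sets of values, led a gene list, were markers, or were above background in 1 season only; COL3A1 and CENPF were named after their values were seen. The gene lists, and the choice of these arrays, were made with earlier results of these data known. Arrays with the same replicate number deviated together across the seasons (correlations of 0.24, 0.11 and 0.20), and so did the horns within a season (0.14 to 0.50), a pairing that comes from the data and not from the labels. The fit above has no replicate block; with one, 1088 probes were higher and 514 lower at an unadjusted p under 0.05, against 789 and 439. Alternatives covered arrays, blocks, scaling, background, filters and the authors' table; 2 of them, named in the closing section, were chosen after seeing the data.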

Additional observations from a re-analysis of the deposited data

How the results depend on the processing

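The count at an adjusted p under 0.05 was 0 under every alternative with all 6 CL-side arrays, and 0 to 7 with 1 array left out; the difference between the horns gave 0 to 1. At an unadjusted p under 0.05, the 789 higher probes became 494 with only the 6 CL-side arrays, 405 within the first slide, 487 with array weights, 349 in the authors' values and 423 to 1191 with 1 array left out. The 439 lower probes became 182 with the 6 arrays, 231 with array weights and 199 to 1004 with 1 array left out. Quantile normalization gave 657 higher and 596 lower, and the authors' values 349 and 425. Chosen after seeing the data, the authors' values at a common floor gave 426 higher and 561 lower. Leaving out summer replicate 2 and autumn replicate 1 together, also chosen so, gave 372 and 283. The excess of higher over lower probes thus turned in the authors' values. Probes without overlap, 980 higher and 618 lower, became 3198 and 2434 within the first slide, 1493 to 1934 and 964 to 1582 with 1 array left out, and 2386 and 2090 without both arrays, where fewer arrays must separate; the authors' values gave 518 higher, also at a common floor. The difference between the horns, 233 probes at an unadjusted p under 0.05, became 366 with the replicate block, 512 with the horns of a number as a random block, 120 with normexp, 97 in the authors' values and 154 to 740 with 1 array left out. The replicate block changed no call at the adjusted threshold.

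Signs turned for few of the genes named. Some were chosen because their seasons did not overlap in these and the authors' values. For those, neither the authors' values nor leaving out 1 array can turn the sign. In the authors' values, and then at a common floor, CHIA had −0.025 and −0.021, IFNG −0.10 and −0.061, NUAK2 −0.075 and −0.012, RNF182 −0.071 and −0.036, SLC43A3 −0.11 and −0.015; IL15 had −0.028 at the common floor. ACTG2 had −0.27 with the slide block, −2.25 within the first slide, −0.42 with array weights, −0.37 without summer replicate 2 and −0.70 to 1.64 over the arrays left out in turn. CNN1 had −1.23 within the first slide, −0.13 with array weights and −0.22 without summer replicate 2, in a range of −0.22 to 1.60 over the arrays left out. KRT14 had −0.016 with the slide block, −0.037 without summer replicate 2 (up to 0.28 without summer replicate 1) and −0.022 without both arrays, where IHH had 0.24. The cause was not tested. Of 14 lists with a median of 0.3 or more in size, macrophages and dendritic cells changed sign, in 3 alternatives: 0.02 within the first slide, 0.08 with array weights and 0.10 without summer replicate 2. The median of ciliated cells was below that of immediate early genes in the authors' values at a common floor (0.38 against 0.60) and without both arrays (0.55 against 0.61).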
